A study of Mus musculus with 35 samples.

Results

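Srrm1, Srrm2, Son, Pnn and Acin1 encode proteins of nuclear speckles that carry stretches rich in serine and arginine, and their own transcripts were examined here as RNA targets of the SR proteins and of the mRNA export receptor NXF1. The 5 genes were chosen by name, with no measured value in the choice, and are 5 of the 37310 genes of the mm9 annotation (GENCODE vM1). In the study, mouse P19 embryonal carcinoma cells carrying a GFP-tagged protein were cross-linked with UV light at 254 nm and the RNA bound to that protein was isolated with an antibody to GFP (iCLIP, a method that reads the cross-linked nucleotide as the end of the cDNA). The tagged proteins were NXF1 (3 libraries), SRSF1 (4), SRSF2 (5), SRSF3 (3), SRSF4 (3), SRSF5 (4), SRSF6 (3) and SRSF7 (6), and the control was GFP carrying a nuclear localization signal (GFP-NLS), of which 1 pooled file of 4 libraries was used. All cells were of the same untreated line, each tagged gene was carried on a bacterial artificial chromosome beside the cell's own copies, and the study describes stable clonal lines, so a difference between proteins cannot be told apart from a difference between lines.

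Nuclear speckles are bodies between chromosomes in which splicing factors collect, and Son and Srrm2 are the large scaffold proteins that hold them together. Srrm1 is a splicing coactivator and partner of Srrm2. Pnn (pinin) and Acin1 (acinus) join the exon junction complex, each as the large subunit of a small complex with Rnps1 and Sap18. SR proteins bind exonic RNA through RNA recognition motifs and meet these proteins in the spliceosome, while NXF1 carries mature mRNA through the nuclear pore.

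The deposited lists held between 13038 and 4459523 tags (cDNA counts at cross-linked nucleotides) per library, with a median of 237488. Only positions that passed the authors' significance filter were listed, and each library was filtered on its own, so a gene listed at 0 may still have had tags, and levels are given as CPM, the number of tags per 1000000 listed tags of the library. The 3 SRSF6 libraries held 1155384 to 2323026 tags and the 3 SRSF3 libraries 409282 to 2152709, whereas 6 of the 31 libraries, all labelled SRSF1, SRSF2 or SRSF7, held fewer than 50000. The libraries labelled SRSF2 replicates 2 and 5 name SRSF1 in their file headers. All 8 markers of undifferentiated P19 cells (such as Pou5f1 and Sox2) had tags, at a summed level of 0 to 3197 CPM and a median of 1030 CPM over libraries, against 0 to 135 CPM and a median of 6.35 CPM for 8 markers of differentiated cells. The libraries labelled SRSF7 include replicate 4, which alone holds 4459523 tags, more than the 1449645 of the authors' pooled SRSF7 list, and leaving it out ended no call of the 5 genes or their parts. The study calls its replicates biological. The labels do not say whether they came from separate cultures, so each p-value measures the spread between these libraries, which may in part be technical.

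Together the 5 transcripts received 130362 of 24445952 tags, 0.533% of all. No tag of the 5 genes lay on the opposite strand. Of 6031 genes that passed the filter on low values, all 5 among them, Srrm2 ranked 22 by its mean level over the 8 proteins (2043 CPM), Srrm1 ranked 88 (736 CPM), Acin1 274 (344 CPM), Son 353 (279 CPM) and Pnn 1245 (98.0 CPM). The median tested gene had 37.1 CPM. In the GFP-NLS control, 3 of 21880 tags lay on Srrm2 (137 CPM) and the other 4 genes were listed at 0.

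The tags of Srrm2 and Son lay mostly in 1 very long coding exon, and those of the other 3 genes were spread over several. Srrm2 (ENSMUSG00000039218.9, chr17:23940154-23961706, plus strand, mm9) has 81.0% of its coding sequence in the 6569 nt of exon 11. That exon held 42168 of 74539 Srrm2 tags (56.6%). Son (ENSMUSG00000022961.10, chr16:91647751-91679466, plus strand) is built alike, with 80.3% of the coding sequence in the 5970 nt of exon 3, which held 54.5% of 12389 tags. Srrm1 (ENSMUSG00000028809.9, chr4:134876399-134909236, minus strand) has no such exon. Its longest, exon 15 with 462 nt, held 8.01% of 26332 tags, and the other coding exons held 50.5%. In Pnn (ENSMUSG00000020994.4, chr12:60167906-60175004, plus strand) exon 9 carries 1385 nt of coding sequence and 35.2% of 4455 tags. In Acin1 (ENSMUSG00000022185.11, chr14:55260998-55305768, minus strand) exon 6 with 1263 nt held 10.51% of 12647 tags, and introns together held more than that exon.

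The sequences below are the positions listed in the most libraries, given to show what the tagged proteins met in these transcripts. Each is the 30 nt around the cross-linked nucleotide of the transcript strand (mm9), with that nucleotide in capitals. The first group comes from the longest coding exon of each gene, and the Srrm2 exon is shown with its 2 strongest positions as well.
Srrm2 exon 11, chr17:23952185-23952214 (+), 18 libraries: tccccacgacccctTgcagcaatcccgtcc
Srrm2 exon 11, chr17:23958554-23958583 (+), 17 libraries: tcctcttcatcatcTtcatcgtcatcctcc
Srrm2 exon 11, chr17:23958560-23958589 (+), 15 libraries: tcatcatcttcatcGtcatcctcctcttcc
Son exon 3, chr16:91660680-91660709 (+), 13 libraries: aagaagacgaagctTcagtatatcaccggt
Srrm1 exon 15, chr4:134880948-134880977 (-), 12 libraries: cgccctccttatctTcaaaacataggaaag
Pnn exon 9, chr12:60172420-60172449 (+), 9 libraries: tgaaggtagacgcaTcgaatttgcagaaca
Acin1 exon 6, chr14:55283878-55283907 (-), 9 libraries: cttaccaaggaagcGtcatctccaccaact

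The 2 strongest Srrm2 positions lie side by side near the 3′ end of exon 11. They held 195 and 158 tags, and both were listed for all 7 SR proteins. Neither was listed for NXF1, whose libraries held 68, 8 and 4 tags in the whole exon. The third strongest position of that exon, chr17:23958542 with 162 tags in 17 libraries, was listed for NXF1 and for all 7 SR proteins. By contrast, the Son and Pnn positions with the highest mean level were listed in few libraries. The strongest of Son exon 3 had 5 tags in 1 SRSF2 library and the strongest of Pnn exon 9 had 3 tags in 2 SRSF7 libraries, which is why the positions shown are those listed most often. In other coding exons, a Srrm1 position in exon 9 was listed in 15 libraries, a Srrm2 position in exon 12 in 19 and a Pnn position in exon 5 in 11.
Srrm1 exon 9, chr4:134893930-134893959 (-): agctcgtcgtcctcTtcatctcgttcccgg
Srrm2 exon 12, chr17:23959399-23959428 (+): gtcccaaaggaggcTattagagagggacgt
Pnn exon 5, chr12:60169890-60169919 (+): cagcactgcaatctTccgttgtagctacct

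Cross-links in the long exons lay at T (U in the RNA) more often than the exons' base content. In Srrm1 exon 15, 35.4% of tags were at T although T makes up 14.5% of the exon. The share of tags at T against the T content was 44.1% against 21.1% in Srrm2 exon 11, 48.1% against 23.1% in Son exon 3, 39.9% against 16.2% in Pnn exon 9 and 38.4% against 17.4% in Acin1 exon 6. Of the nucleotides of Srrm2 exon 11, 71.6% were listed in at least 1 library, and of Srrm1 exon 15 76.2%, so that tags covered these exons broadly. In Son, Pnn and Acin1 the listed share of the exon was 39.5%, 34.2% and 44.8%. Repeats within the same exon were found in Son exon 3 alone, where 9.98% of the exon lies in 30-nt stretches that occur more than once in it, and these held 9.98% of its tags. Copies elsewhere in the genome, which could also confuse mapping, were not part of this count.

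The letters around the tags differed between SRSF3 and SRSF6. Short motifs were counted on the transcript strand in the 21 nt centred on each tag of the 5 longest exons, in the libraries with at least 20 such tags, and several can occur together in 1 window. CTTC was near 36.3%, 32.5% and 31.7% of SRSF3 tags and near 15.8%, 15.96% and 15.8% of SRSF6 tags, while 9.79% of all 15549 windows of these exons hold it. Thus SRSF3 tags lay beside CTTC in all 3 libraries more often than SRSF6 tags in theirs. CATC was near 30.8% ± 2.5 of SRSF3 tags and 18.7% ± 0.2 of SRSF6 tags (SD, n = 3 each), against 11.1% of all windows. GGA showed the opposite order. It was near 17.4% ± 0.5 of SRSF3 tags, 26.3% ± 1.3 of SRSF6 tags and 28.7% ± 4.6 of SRSF1 tags (SD, n = 2 for SRSF1), against 32.9% of all windows. GAAG was near 6.13% ± 0.12 of SRSF3 tags and 16.6% ± 0.9 of SRSF6 tags, against 15.5% of all windows. SRSF7 spread most, from 20.6% to 79.4% for CTTC, with the highest share in a library with 34 tags in these exons. Exon 11 of Srrm2 gave 87.1% to 88.6% of these SRSF3 tags and 70.0% to 74.5% of these SRSF6 tags, so the mix of exons differed as well. Within that exon alone, CTTC was near 35.4% ± 2.6 of SRSF3 tags and 17.5% ± 0.8 of SRSF6 tags, and GGA near 16.3% ± 0.5 of SRSF3 tags and 24.0% ± 1.6 of SRSF6 tags (SD, n = 3 each). Tags of 1 exon are not replicates, so these shares are descriptions.

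**Figure D1:**
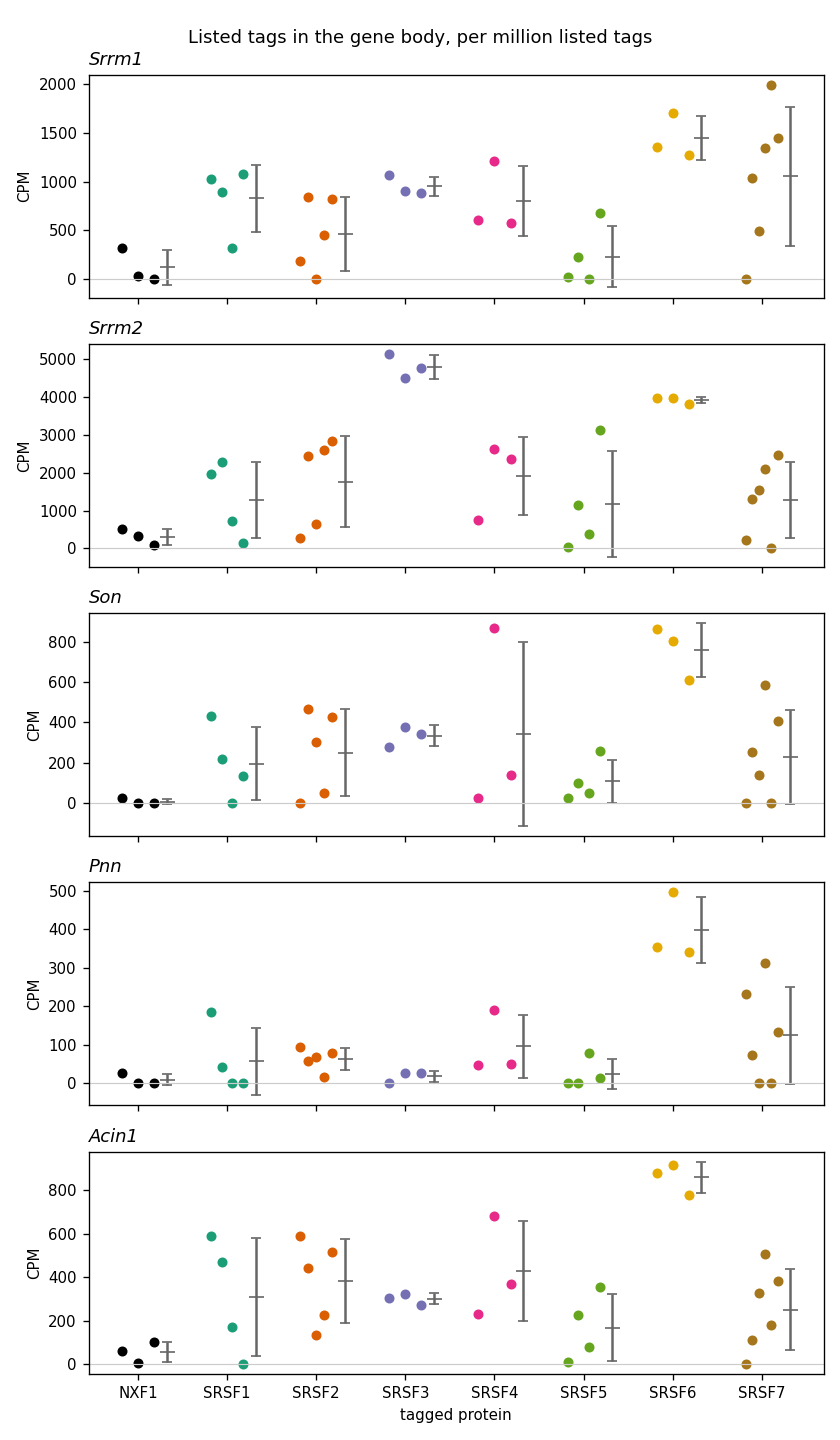
Level in the gene body (CPM, linear axis) for the 5 genes. Each point is 1 library, and the cross and bar beside each protein give the mean and SD. For Pnn and Acin1 the 3 SRSF6 libraries (341 to 495 and 778 to 918 CPM) lie above all other libraries, and for Srrm2 the 3 SRSF3 libraries (4489 to 5121 CPM) do.

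Srrm2, the speckle scaffold with the most tags, was read at its highest level by SRSF3 and next by SRSF6. The SRSF3 libraries had 5121, 4489 and 4762 CPM, and no other library of any protein reached the lowest of these. SRSF6 followed with 3963, 3966 and 3816 CPM, a narrow range that did not overlap that of SRSF3 or of SRSF2, the third in order of the medians. The remaining SR proteins overlapped one another. SRSF2 had 279.8, 2445, 640.2, 2588 and 2819 CPM, SRSF4 had 749, 2632 and 2347 CPM, SRSF1 had 1969, 2266, 736 and 134 CPM and SRSF5 had 32.1, 1145, 382 and 3134 CPM. SRSF7 ranged from 0 to 2474 CPM with a median of 1427 CPM, and its library listed at 0 was replicate 5 with 16556 tags. NXF1 was lowest by its median, at 505, 335 and 82.8 CPM. Against the mean of the other 6 SR proteins, Srrm2 differed by 2.02 ± 0.93 (log2, SE) for SRSF3 and 1.69 ± 0.93 for SRSF6, and neither passed the test (limma adjusted p = 0.147 and 0.223). The NXF1 difference from the mean of the 7 SR proteins, -2.54 ± 1.02, did not pass either (limma adjusted p = 0.0893).

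Son, the other scaffold, had its highest median level with SRSF6. The SRSF6 libraries had 861, 805 and 608 CPM, and 1 other library lay above them, SRSF4 replicate 2 with 866 CPM. SRSF3 came next by the median with 276, 379 and 345 CPM and did not overlap SRSF6. SRSF4 itself was divided, with 27.7, 866 and 138 CPM. In NXF1 Son had 25.3 CPM in replicate 1 and was listed at 0 in the other 2 libraries, the lowest level of all proteins. The SRSF6 difference was 2.42 ± 0.96 on the log2 scale (limma adjusted p = 0.116) and the NXF1 difference -4.19 ± 1.43 (limma adjusted p = 0.0673), so that Son passed the test in no protein.

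Srrm1, the splicing coactivator, was low with NXF1 and with SRSF5 and had its highest median levels with SRSF6 and SRSF7. With NXF1 it had 320.0, 35.6 and 0 CPM, against 0 to 1993 CPM with a median of 865 CPM in the 28 SR libraries. The change was -3.77 ± 1.03 on the log2 scale and passed the test (limma adjusted p = 0.0299). In the SRSF5 libraries it had 16.03, 221, 0 and 674 CPM, against a median of 898 CPM in 24 libraries of the other SR proteins, a change of -3.71 ± 0.96 (limma adjusted p = 0.0102). With SRSF6 the levels were 1359.9, 1704 and 1275 CPM, and they overlapped those of SRSF7 (0 to 1993 CPM, median 1192 CPM). The 1993 CPM of SRSF7 replicate 5 rested on 33 tags, and the SRSF7 change was 0.47 ± 0.82. SRSF1 had 1028, 889, 322 and 1074 CPM, SRSF3 had 1065, 908 and 886 CPM and SRSF4 had 609.9, 1217 and 577 CPM. No SR protein other than SRSF5 differed in Srrm1 by the test. The lowest adjusted p among those was that of SRSF6, with 1.80 ± 1.04 (limma adjusted p = 0.242).

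Pnn, an exon junction complex component, had the fewest tags of the 5 genes and its highest levels with SRSF6. In SRSF6 libraries it had 354, 495 and 341 CPM, against 0 to 311 CPM in the 25 libraries of the other SR proteins, 7 of them at 0. The ranges did not overlap, and the change was 3.82 ± 0.93 on the log2 scale (limma adjusted p = 0.0156). Pnn was low with SRSF3, at 0, 26.0 and 25.1 CPM, in libraries of 409282 to 2152709 tags. That difference of -2.68 ± 0.94 missed the threshold (limma adjusted p = 0.0585). SRSF5 had 0, 0, 79.1 and 13.96 CPM, a change of -3.62 ± 0.94 (limma adjusted p = 0.0102). With NXF1 it had 25.3 CPM in 1 library and was listed at 0 in the other 2, which did not pass (-2.04 ± 1.35, limma adjusted p = 0.224). The 230.1 CPM in SRSF7 replicate 1 rested on 3 tags, since that library held 13038 tags in all.

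Acin1, the other exon junction complex component, also had its highest level with SRSF6. The SRSF6 libraries had 881, 918 and 778 CPM, and none of the other 25 SR libraries exceeded 679.6 CPM. The difference of 1.89 ± 0.79 on the log2 scale did not pass the test (limma adjusted p = 0.130). With NXF1 it had 58.95, 7.12 and 101 CPM, against a median of 326 CPM in the 28 SR libraries, and this change of -2.79 ± 0.77 passed (limma adjusted p = 0.0309). The Acin1 3′ UTR was not lower, with a mean of 29.4 CPM in NXF1 against 27.9 CPM in the SR proteins (0.06 ± 0.74, limma adjusted p = 0.952). Set against the rest of the gene it was higher in NXF1 by 3.52, which did not pass (limma diffSplice adjusted p = 0.0569). The Acin1 position listed in the most libraries, 12, lay in that 3′ UTR and was listed for NXF1. In SRSF5 Acin1 had 8.01, 226, 79.1 and 353 CPM (-1.89 ± 0.73, limma adjusted p = 0.0560). SRSF3 libraries agreed closely at 305, 325 and 272 CPM.

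**Figure D2:**
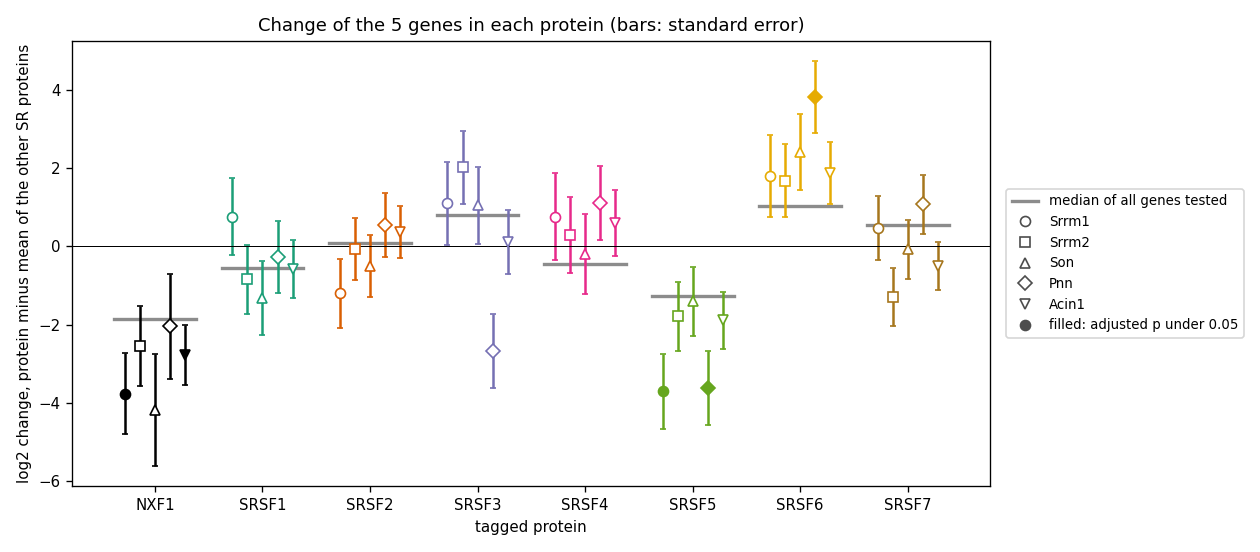
Log2 change of each gene in each tagged protein against the mean of the other SR proteins, with the standard error as bars. Grey lines mark the median of all 6031 genes, filled symbols an adjusted p under 0.05. The 5 filled symbols are Srrm1 and Acin1 in NXF1, Srrm1 and Pnn in SRSF5 and Pnn in SRSF6.

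Set beside all genes, the members were called in 3 of the 8 comparisons, and in all 3 most genes had a change of the same sign. With NXF1, 2 of 5 were called, both lower, where 2.45% of all genes were called lower and 2.90% higher. The median of all genes was itself shifted by -1.86 and that of the 5 genes by -2.79. With SRSF5, 2 of 5 were called lower, against 20.4% of all genes, and the medians were -1.89 for the 5 genes and -1.28 for all. With SRSF6, 1 of 5 was called higher, against 4.21% of all genes, with medians of 1.89 and 1.04. None was called with SRSF3 (10.8% of all genes called), SRSF1 (2.57%), SRSF2 (0.464%), SRSF4 (0.415%) or SRSF7 (2.98%) by limma voom, and none by limma-trend. At an unadjusted p under 0.05, 2 of 5 stood out in SRSF3 (Srrm2 and Pnn) and 0 in the other 4. Calls of all genes depended on the scale. In SRSF6 254 genes were called higher and 42 lower with library totals, 6 and 12 with trimmed-mean scaling and 142 and 108 with totals over coding genes. The same numbers were 175 and 148, 83 and 5, and 430 and 80 in NXF1, 99 and 1231, 77 and 34, and 315 and 517 in SRSF5, and 516 and 138, 94 and 85, and 439 and 414 in SRSF3. Since the median moved with each protein, the members were also set against it. Srrm1 in NXF1 then stood at -1.91, and at -1.92 and -1.57 under trimmed-mean scaling and under totals over coding genes. Acin1 in NXF1 stood at only -0.93, -0.82 and -1.10. In SRSF5, Srrm1 stood at -2.43, -2.68 and -1.91 and Pnn at -2.35, -1.97 and -2.96. Pnn in SRSF6 stood at 2.78, and at 2.81 and 2.76 under these scalings, and Pnn in SRSF3 at -3.48, -3.89 and -2.96.

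The calls rested on few libraries. For Srrm1 and Acin1 in NXF1, leaving out any 1 of the 3 NXF1 libraries ended both calls (limma adjusted p from 0.0614 to 0.260), with changes between -5.02 and -2.15 for Srrm1 and between -3.39 and -1.77 for Acin1. Leaving out SRSF6 replicate 1, 2 or 3 ended the gene-level call of Pnn (0.132, 0.159 and 0.0863), while the change itself stayed between 3.65 and 3.91 in these fits. Without SRSF5 replicate 1 or 3 Srrm1 was no longer called in SRSF5 (-3.06 and -2.30, 0.0658 and 0.122), and without replicate 2 Pnn was not (-2.04, 0.210). SRSF5 replicate 1 held 10 tags on the 5 genes together. SRSF6 and SRSF5 were sequenced in the earlier of 2 run years and NXF1 in the later. Fits within a year compared each protein only with the SR proteins of that year. These were SRSF2, SRSF5, SRSF6 and SRSF7 in the earlier year and SRSF1, SRSF3, SRSF4 and SRSF7 in the later. The contrast therefore differs from that of the main fit. Within the year the calls were Srrm1 and Acin1 in NXF1 (-4.58 and -2.99, limma adjusted p = 0.00131 and 0.0158), Pnn in SRSF5 (-4.38, 0.0112) and all 5 genes in SRSF6, Pnn among them with 4.06 (0.00216). The share of all genes called within a year was not counted. Srrm1 in SRSF5 was not called within its year (-3.14, 0.0542). With run year as a term in the fit of all libraries, neither SRSF5 gene was called (Pnn -2.73, 0.278, and Srrm1 -2.17, 0.397), and the other 3 calls were kept. SRSF7 alone was sequenced in both years, so this term rests on its libraries. Those of the earlier year held 13038, 54936 and 42751 tags. For the other proteins the term cannot tell year from protein.

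**Figure D3:**
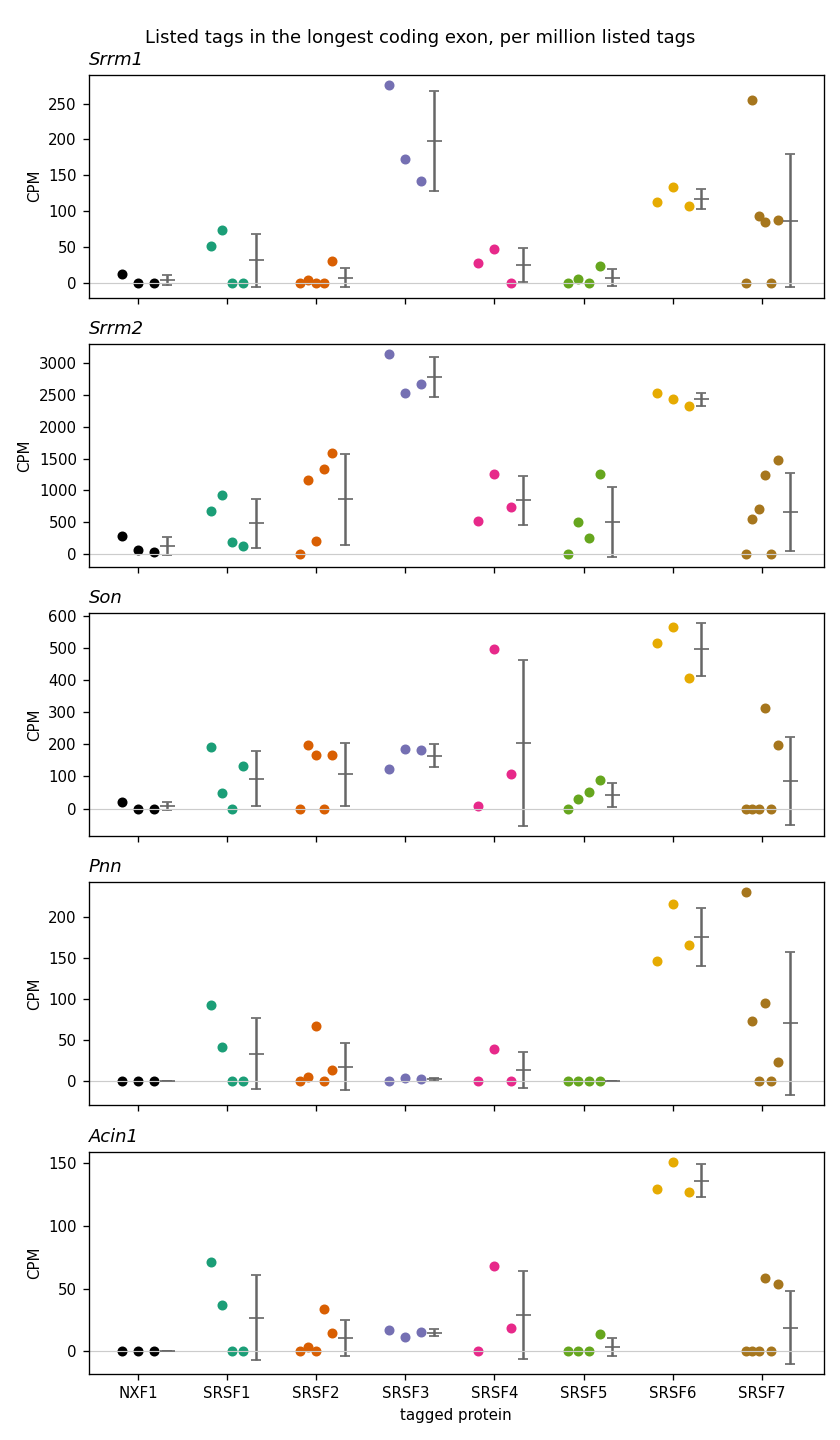
Level in the longest coding exon of each gene (CPM, linear axis). Each point is 1 library, with the mean and SD beside each protein. Pnn exon 9 had 146 to 216 CPM in the SRSF6 libraries and at most 2.79 CPM in the SRSF3 libraries.

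In the longest coding exons, SRSF6 read 3 of the 5 exons at a higher level than the other SR proteins. Pnn exon 9 had 146, 216 and 166 CPM in SRSF6, against 0 to 230.1 CPM in the other 25 libraries with 13 at 0, and the 1 library above SRSF6 was again SRSF7 replicate 1 with its 3 tags. The change was 4.25 ± 0.75 on the log2 scale (limma adjusted p = 0.000439). Acin1 exon 6 had 130.0, 151 and 127 CPM in SRSF6, above the 0 to 71.1 CPM of all 25 others (3.17 ± 0.75, limma adjusted p = 0.00447). Son exon 3 had 516, 567 and 407 CPM, against 0 to 497 CPM, with SRSF4 replicate 2 as the only library inside the range (3.14 ± 1.05, limma adjusted p = 0.0410). Among 803 longest exons tested, 42% were called higher in SRSF6 and their median change was 1.83, so the exons of these genes moved with those of most others. Acin1 exon 6 was not called with trimmed-mean scaling, limma-trend or no filter (0.0634, 0.0519 and 0.185), and Pnn exon 9 was not called with no filter (0.0967). Leaving out any 1 of the 31 libraries kept both, whereas that of Son was lost in 9 of 31 such fits, among them those without SRSF6 replicate 1, 2 or 3 (0.150, 0.159 and 0.115). In the 9 other settings the call of Son exon 3 was kept in 4 (limma adjusted p up to 0.318).

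With SRSF3 the exons of Srrm1 and Pnn went in opposite directions. Srrm1 exon 15 had 276, 173 and 143 CPM, against 0 to 255 CPM in the 25 other SR libraries, 10 of them at 0, a change of 2.76 ± 0.76 (limma adjusted p = 0.00831). The library inside the SRSF3 range was SRSF7 replicate 2. Pnn exon 9 had 0, 2.79 and 2.05 CPM, against 0 to 230.1 CPM with 12 libraries at 0, a change of -2.94 ± 0.77 (limma adjusted p = 0.00559). SRSF3 called 23.3% of the 803 exons higher and 18.1% lower. Srrm2 exon 11 was highest in SRSF3, at 3139.6, 2530.3 and 2677 CPM, and although none of the 25 others exceeded 2523 CPM, the difference of 2.53 ± 1.14 did not pass (limma adjusted p = 0.105). Without SRSF3 replicate 1 or 2 the Srrm1 call was lost (0.0529 and 0.0557), and without replicate 2 or 3 that of Pnn (0.0635 and 0.0806). SRSF3 was sequenced in the later year. Within it, against SRSF1, SRSF4 and SRSF7 of that year only, Srrm1 exon 15 was called (2.38, limma adjusted p = 0.0200). With run year as a term, which rests on SRSF7 alone, Srrm1 exon 15 was called (3.25, 0.0385) and Pnn exon 9 was not (-2.96, 0.0717).

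SRSF5 had low levels of 3 of these exons. Pnn exon 9 was listed at 0 in all 4 SRSF5 libraries, against 0 to 230.1 CPM with 9 of 24 others at 0 (limma adjusted p = 0.0162). Acin1 exon 6 was listed at 0 in 3 of 4 libraries and had 13.96 CPM in replicate 4 (-3.08 ± 0.84, limma adjusted p = 0.0122). Srrm1 exon 15 had 0, 4.78, 0 and 23.9 CPM (-2.20 ± 0.75, limma adjusted p = 0.0311). All 3 were called lower, as were 43.6% of the 803 exons, whose median change was -2.02. Without SRSF5 replicate 2 none of the 3 was called (0.118, 0.326 and 0.277), and Srrm1 exon 15 was not called without replicate 1 or 3 either (0.0693 and 0.0543). With run year as a term, which rests on SRSF7 alone, all 3 were lost (0.142, 0.408 and 0.176). Within the earlier year, against SRSF2, SRSF6 and SRSF7 of that year only, all 3 were called (0.0151, 0.0313 and 0.0437). None of the 5 exons was called with NXF1 (0.125% of exons called), SRSF1 (4.73%), SRSF2 (3.49%), SRSF4 (1.74%) or SRSF7 (3.24%), where 1, 0, 1, 0 and 2 of the 5 had an unadjusted p under 0.05 and limma-trend called none.

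The other parts of the genes added few calls. The coding exons of Pnn other than exon 9 had 146, 193 and 137 CPM in SRSF6, above all others at 0 to 116 CPM, and were called higher (3.82 ± 0.92, limma adjusted p = 0.00542) as were 12.8% of all 6747 parts tested. That call was lost without SRSF6 replicate 2 (0.0537), with trimmed-mean scaling (0.0560) and with no filter beyond 1 tag (0.166). With SRSF5, 24.2% of all parts were called lower, among them the other coding exons of Srrm1 (-2.90 ± 0.90, limma adjusted p = 0.0203) and the 3′ UTRs of Srrm1 (-2.63 ± 0.79, 0.0178), Acin1 (-2.51 ± 0.85, 0.0311) and Pnn (listed at 0 in all 4 libraries, 0.0368). Trimmed-mean scaling, limma-trend, no filter and run year as a term each ended all 4 of these calls (0.132 to 0.497), and so did leaving out SRSF5 replicate 2 (0.0837, 0.110, 0.0957 and 0.201). Without replicate 1 or 3, that of the other coding exons of Srrm1 (0.0797 and 0.209), of the Acin1 3′ UTR (0.0591 and 0.0602) and of the Pnn 3′ UTR (0.0763 and 0.0714) was also lost, and without replicate 4 those of the Acin1 and Pnn 3′ UTRs (0.217 and 0.0723).

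**Figure D4:**
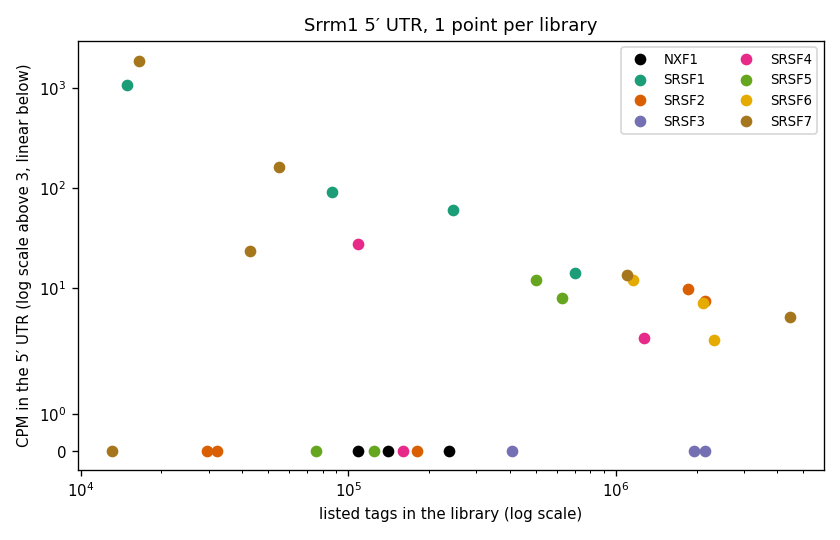
Level of the Srrm1 5′ UTR (CPM, log axis above 3 and linear below) against the tags listed in the library (log axis), 1 point per library coloured by tagged protein. The highest levels, 1872 CPM in SRSF7 replicate 5 and 1074 CPM in SRSF1 replicate 4, belong to libraries with 16556 and 14900 tags, and the SRSF3 libraries are at 0.

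By mean level over proteins, the short 5′ UTR of Srrm1 was the densest part tested in the 5 genes per unit length. Its 97 nt held 216 tags, at a mean over proteins of 879.8 CPM per 1000 nt, against 143 CPM per 1000 nt in the other coding exons of Srrm1. Most of that mean came from 2 small libraries, SRSF7 replicate 5 with 1872 CPM and SRSF1 replicate 4 with 1074 CPM. By plain tag counts the other coding exons of Srrm1, with 13304 tags in 2376 nt, were denser. SRSF1 had 14.2, 60.9, 92.0 and 1074 CPM there, against 0 to 1872 CPM in 24 libraries of the other SR proteins, and was called higher (3.73 ± 0.84, limma adjusted p = 0.0112, 1.24% of parts called higher). SRSF3 was listed at 0 in all 3 libraries and was called lower (limma adjusted p = 0.0104, 5.25% of parts called lower). Set against the rest of its own gene, the 5′ UTR was the only part of a member whose use passed the test in any protein, lower in SRSF3 (limma diffSplice adjusted p = 0.00807, 4.02% of 4654 parts called lower). SRSF7 had 0, 164, 23.4, 5.16, 1872 and 13.6 CPM. In SRSF1 replicate 4 the 16 tags of the 5′ UTR were all the tags of the gene. The libraries with 1872 and 1074 CPM held 16556 and 14900 tags, whereas the smallest library of all, SRSF7 replicate 1, was at 0. Leaving out SRSF1 replicate 4 ended the SRSF1 call (3.12, limma adjusted p = 0.0503), as did limma-trend and no filter beyond 1 tag (0.222 and 0.0704). The SRSF3 call was lost without replicate 2 or 3 (0.0827 and 0.0715), with limma-trend (0.166) and with run year as a term (0.104). The position listed in most libraries, 9, was the following.
Srrm1 5′ UTR, chr4:134909035-134909064 (-): gatagggagcgatcTccgagcgaggcggca

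Per unit of length, the longest coding exons held more tags than the introns in all 5 genes by the mean over proteins. The ratio of the mean densities over proteins was 21.2 in Srrm1, 13.7 in Pnn, 8.73 in Son, 6.86 in Acin1 and 3.996 in Srrm2. Where nucleotides that are exonic in another annotated transcript were left out of the introns, the ratio was 102 in Srrm1, 23.2 in Son and 13.97 in Acin1. The exon was denser in 26 of the 29 libraries with tags in either part of Srrm2, in 18 of 23 for Srrm1, 21 of 25 for Son and 13 of 17 for Pnn. In Acin1 it was denser in 15 of 27.

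**Figure D5:**
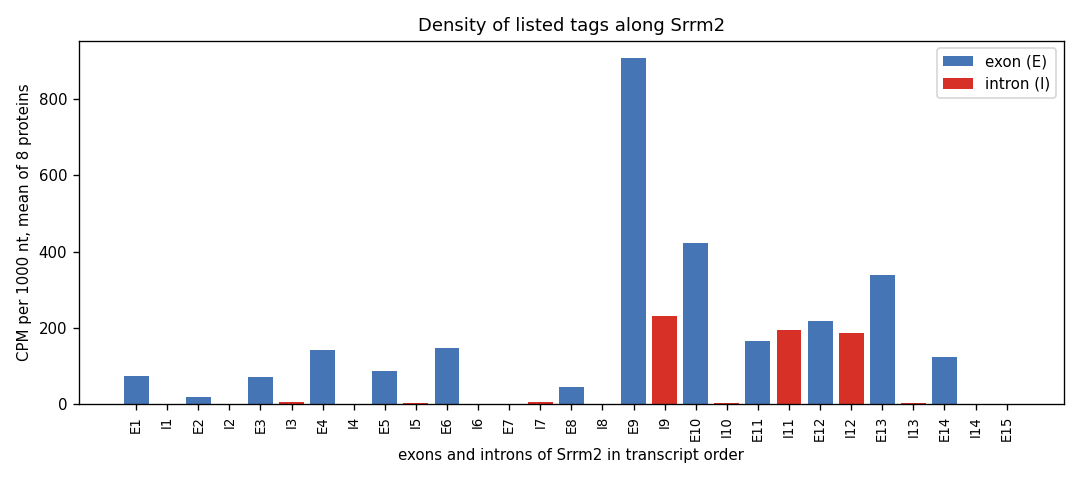
Density of tags (CPM per 1000 nt, mean over the 8 proteins) in each exon (E) and intron (I) of Srrm2, in transcript order. Introns 9, 11 and 12 reach 231, 195 and 188 CPM per 1000 nt, whereas the other 11 lie at 6.63 or below.

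Srrm2 had 3 introns denser than its longest coding exon. Its introns 9, 11 and 12 held 93.9% of 18229 intronic tags in 19.8% of the intron length, and their densities of 231, 195 and 188 CPM per 1000 nt exceeded the 165 CPM per 1000 nt of exon 11 itself. No other annotated Srrm2 transcript has an exon there, and a microRNA gene within intron 12 accounts for 175 of its 7197 tags. The densest exon, exon 9 with 93 nt, adjoins intron 9 and reached 908 CPM per 1000 nt. The proteins differed between these introns. Intron 12 had 506, 603 and 615 CPM in SRSF3, against 289, 254 and 281 CPM in SRSF6. Intron 11 had 264, 438 and 462 CPM in SRSF3, against 205, 202 and 197 CPM in SRSF6. In intron 9 the order turned, with 132, 136 and 171 CPM in SRSF3, against 278, 304 and 299.8 CPM in SRSF6. SRSF3 and SRSF6 did not overlap in any of the 3 introns, but SRSF5 replicate 4 had 709.8 CPM in intron 12, above all SRSF3 libraries. NXF1 had 67.4, 107 and 46.0 CPM in intron 9 and a mean of 20.7 CPM in intron 12. Introns were tested only as 1 part of the gene, so no test was made of single introns. Their most widely listed positions, in 19, 17 and 16 libraries, read as follows.
Srrm2 intron 9, chr17:23948808-23948837 (+): cacggtccctgcccTctaggagctgacagg
Srrm2 intron 11, chr17:23958898-23958927 (+): tagaggaaatggacTtaattttacagcagg
Srrm2 intron 12, chr17:23960694-23960723 (+): cctgaatgcttggcTggtgggtttgggagg

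In each of the other genes, the intron with the most tags was taken. Srrm1 intron 3 (chr4:134900585-134902649, 2065 nt) held 5378 tags, 65.9% of the intronic tags of the gene, and lies wholly within exons of other annotated transcripts, classed as retained intron, nonsense-mediated decay or processed transcript. It had 227, 272 and 246 CPM in SRSF6 and was listed at 0 in all 3 NXF1 libraries, where the rest of Srrm1 had up to 320.0 CPM. Those NXF1 libraries held only 76, 5 and 0 tags on the whole gene. SRSF4 had tags there in 1 of 3 libraries (293 CPM). Acin1 intron 9 held 54.0% of the intronic tags and had 172 ± 11 CPM in SRSF6 and 14.8 ± 13.9 CPM in NXF1 (SD, n = 3 each). Son intron 8 held 45.2% of the intronic tags of its gene and Pnn intron 6 held 39.8%, and both were listed at 0 in NXF1. The NXF1 libraries held only 6 tags on all of Son and 6 on all of Pnn, so these zeros say little about NXF1. Pnn intron 6 was also listed at 0 in all SRSF1 and SRSF5 libraries. The Srrm1 position listed most often in intron 3, in 14 libraries, lies in an exon of another transcript.
Srrm1 intron 3, chr4:134901302-134901331 (-): aagggaacatctttCtctacaggggacttg

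Other genes of the same protein class were counted beside the members. Of 34 further genes for SR-related or speckle proteins, chosen with earlier results known, 31 were tested. With library totals as the scale, all 31 had a negative change in NXF1, as had 5150 of all 6031 genes tested. Their median was -2.61, against -1.86 for all genes, and 4 were called lower (12.9%, against 2.45% of all genes). They were Scaf4, which was listed at 0 in all NXF1 libraries, Bclaf1 (-3.66), Safb2 (-3.22) and Rbm25 (-2.70). In SRSF5, 8 of 31 were called lower (25.8%, against 20.4%), with a median of -1.65 and the largest changes in Rsrc1 (-3.73), Sfrs18 (-3.41), Safb2 (-3.12) and Scaf11 (-2.54). In SRSF6, 3 were called higher (9.68%, against 4.21%), namely Prpf4b (4.70), Rsrc1 (2.97) and Zc3h18 (2.66), and the median was 1.93. In SRSF1 Prpf38b was called lower (-3.27). Sltm, a relative of the scaffold attachment factor Safb, was called higher in SRSF1 (2.58) and lower in SRSF3 (-2.89). The 5 members had the same sign as these medians in NXF1, SRSF5 and SRSF6, but Pnn alone of the 5 was negative in SRSF3 (median of the list 0.61). Among 727 tested genes whose longest coding exon has at least 1000 nt, the median change was -2.04 in NXF1, -1.59 in SRSF5 and 1.398 in SRSF6.

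Levels across the 31 libraries were compared with those of all other tested genes as a description. Spearman's rho was among the highest for Srrm1 with Fip1l1 (0.900) and Vprbp (0.888), for Srrm2 with Huwe1 (0.923), Rad51ap1 (0.919) and Rnf10 (0.909), and for Son with Chd6 (0.951), Ankrd11 (0.927) and Ipo5 (0.927). For Acin1 it was highest with Rad21 (0.911), Faf2 (0.906) and Kdm5c (0.891), and for Pnn with Usp47 (0.874), Prmt3 (0.818) and Golim4 (0.817). Between members, rho was 0.775 for Srrm2 with Son, 0.531 for Srrm1 with Srrm2 and 0.348 for Srrm2 with Pnn, against a median over all tested genes of 0.577 for Srrm2. The points share library, depth and protein for every gene.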

How the data were processed

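Processed iCLIP lists of 31 libraries, 8 pooled lists and 1 pooled control were used. The values deposited by the authors are signed numbers of cDNA tags per nucleotide (mm9, other than read counts because they were filtered), with the sign giving the strand. The authors kept positions at an FDR of 0.05 from 100 permutations, within 15 nt and Ensembl 59 segments, of which the paper's main text states the FDR only. The submitters' notes name CASAVA 1.4. Pooled lists were made by the authors and were not tested.

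Same-strand tags were summed per gene body and per part of 1 representative transcript (GENCODE vM1) and divided by the library's total of listed tags (Python 3.11.15, numpy 2.4.6, pandas 2.3.3). Because only filtered positions are listed, the depth of sequencing is unknown, and no interval or lower limit was computed for a level of 0. limma voom (limma 3.58.1, R 4.3.3) was fitted once over 31 libraries and 8 proteins, without a block. Genes had to reach 42.1 CPM (10 tags in the median library) in 3 or more libraries, and 15 tags overall. Calls had a Benjamini-Hochberg adjusted p under 0.05 over all genes (6031) or parts (6747). The compared mean weighted each SR protein equally. Srrm2 includes 175 tags (0.235%) of a microRNA gene inside it. Fits were also run on simulated counts that, unlike these lists, were not filtered, so that run does not show how they perform here.

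Named genes were the 5 members, the 3 most correlated genes of each (1 is not reported here) and up to 4 called genes of the list of other SR-related genes per comparison, by absolute change. Named positions were the 3 strongest and the most widely listed ones of a part, and the named intron was that with the most tags. The 3 Srrm2 introns and exon 9 were chosen after their values were seen. Members and lists were chosen with earlier results of these data known. Alternatives changed the scaling, model, filter, replicate block, libraries and run year, the last chosen after seeing the data.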

Additional observations from a re-analysis of the deposited data

Results flagged for a closer look

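Gaps within groups of 4 to 6 libraries were tested for the 5 genes, their longest coding exons and the Srrm1 5′ UTR, and in 6 of 44 groups 1 library lay apart from the rest, where chance gives about 1 in 20 for normally spread values. That rate does not hold here, since 34 of the 44 groups had a library listed at 0. Acin1 exon 6 had 13.96 CPM in SRSF5 replicate 4 and was listed at 0 in the other 3 SRSF5 libraries. Pnn exon 9 had 67.4 CPM in SRSF2 replicate 3, a library with 29680 tags in all, against 12.6 CPM in the next of that protein. Srrm1 exon 15 had 30.7 CPM in SRSF2 replicate 5, one of the libraries that name SRSF1 in their header, against 3.77 CPM in the next, and 255 CPM in SRSF7 replicate 2, against 93.6 CPM in the next. In the Srrm1 5′ UTR, SRSF1 replicate 4 had 1074 CPM against 92.0 CPM in the next, and SRSF7 replicate 5 had 1872 CPM against 164 CPM in the next. They rested on 16 and 31 tags in libraries of 14900 and 16556 tags.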

How the results depend on the processing

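The number of the 5 genes called was 2 in NXF1, 0 in SRSF3, 2 in SRSF5 and 1 in SRSF6, and that of their longest coding exons was 2 in SRSF3, 3 in SRSF5 and 3 in SRSF6. With trimmed-mean (TMM) scaling the genes called were 0 in NXF1, 0 in SRSF5 and 0 in SRSF6, and the exons 1 in SRSF3, 0 in SRSF5 and 1 in SRSF6. With totals over coding genes the genes were 0 in NXF1, 1 in SRSF3 and 1 in SRSF5, and the exons 1 in SRSF1 and 1 in SRSF2. With limma-trend on log2(CPM + 1) the genes were 0 in NXF1, 0 in SRSF5 and 0 in SRSF6, and the exons 0 in SRSF3, 0 in SRSF5 and 1 in SRSF6. With no filter beyond 1 tag the genes were 0 in NXF1, 1 in SRSF5 and 0 in SRSF6, and the exons 0 in each of SRSF3, SRSF5 and SRSF6. In libraries with at least 50000 tags the genes were 4 in NXF1, 2 in SRSF3 and 4 in SRSF5, and the use of 1 part passed in NXF1. Without the libraries labelled SRSF2 replicates 2 and 5, 2 genes were called in SRSF6. With run year as a term, which rests on SRSF7 alone and was chosen after seeing the data, 0 genes were called in SRSF5. With that term 1 exon was called in SRSF3 and 0 in SRSF5. Fits of a single year compared each protein with the SR proteins of that year only. In the later year alone 1 gene was called in SRSF3 and 1 exon in NXF1. In the earlier year alone 1 gene was called in SRSF5, and 5 genes and 5 exons in SRSF6. Apart from calls of all genes under the scalings, the share of all genes or exons called was not counted in these alternatives. Member counts in those fits cannot be set against such a share. The cause of these changes was not tested, except that fewer features or libraries entered some fits.

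Leaving out 1 library at a time gave 0 to 3 genes called in NXF1, 0 to 1 in SRSF3, 1 to 4 in SRSF5 and 0 to 1 in SRSF6, and 0 to 2 exons in SRSF3, 0 to 4 in SRSF5, 2 to 4 in SRSF6 and 0 to 1 in SRSF7. No called change turned its direction under any alternative. The longest exon of Pnn in SRSF6 was called in 8 of 9 other settings (3.60 to 5.35 on the log2 scale) and in 31 of 31 fits without 1 library. With totals over coding genes and trimmed-mean scaling the higher and lower calls of all genes were 163 and 76, and 17 and 54, in SRSF7 (152 and 28 with library totals), 124 and 56, and 20 and 3, in SRSF4 (23 and 2), and 210 and 330, and 34 and 27, in SRSF1 (69 and 86). The replicate number as a block moved no count of members by over 1.5 times, but ended the SRSF5 calls of the Pnn 3′ UTR (-2.97, limma adjusted p = 0.0587) and the Acin1 3′ UTR (-2.15, 0.0981). Numbers did not pair the libraries, since deviations of same-numbered libraries had a mean correlation of 0.0086 (91 pairs, -0.220 to 0.299). The planned edgeR alternative was not run, because the filtered tags are not read counts. The depth of a library limits what it lists, and a gene listed at 0 may still have had tags.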
